A study of Mus musculus with 24 samples.

Results

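The oesophagus of wild-type mice with mixed reflux was set against that of wild-type mice with duodenal reflux, which asks what gastric content adds to, or takes from, the effect of duodenal content. The labels assign 3 arrays to each group, 6 of the 24 arrays of a series that covers 4 reflux conditions in 2 genotypes. Both groups were male C57BL/6J mice, 12 weeks old and wild type for Nrf2, with 4 weeks of reflux. Per the labels, the characteristics give the tissue as whole oesophagus, whereas the source names give oesophageal epithelium. How the reflux was produced is not given in the labels. For context the same measurements are given in wild-type mice without reflux and with gastric reflux, and in Nrf2-null mice with duodenal and with mixed reflux, also 3 arrays each, of the same sex, strain and age. The Nrf2-null mixed reflux samples carry the tissue label oesophageal epithelium in both fields.

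The mouse oesophagus is lined by a stratified, keratinised squamous epithelium in which basal cells divide and their daughters differentiate as they move up, over a wall of connective tissue and muscle. Gastric reflux brings acid and pepsin onto this lining, duodenal reflux brings bile and pancreatic enzymes, and mixed reflux brings both. Injured squamous epithelium is known to raise the division of its basal cells and to release cytokines, chemokines and antimicrobial proteins through pathways such as NF-kB signalling, while Nrf2 switches on antioxidant and detoxification genes.

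Several DNA replication genes and NF-kB targets were lower with mixed than with duodenal reflux, and some macrophage-associated genes were far higher. Of 33 tested replication genes 18 passed the test, all of them lower. They were led by Mcm10, which helps to start the replicative helicase, and the helicase subunit gene Mcm3 (2.74-fold and 2.71-fold). Among 27 tested NF-kB targets 7 passed, also all lower. They included the neutrophil growth factor gene Csf3 (5.04-fold) and the chemokine gene Ccl20 (2.79-fold). Over all genes tested 1.77% were lower. The NF-kB list mean on mixed replicate 2, -0.27, lay close to the duodenal arrays at -0.22 to -0.14. Only 2 or 3 NF-kB targets passed without any one array other than mixed replicate 2. Retnla and Cd163, both products of alternatively activated macrophages, were 11.8 and 9.61 times higher. The macrophage and monocyte list as a whole did not move with them, with 2 of 23 genes higher and a median difference of -0.07.

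The promoters of replication genes and NF-kB targets are shown because every gene of these lists that passed was lower, and each list has a known family of regulators, E2F for replication genes. Each window runs from 250 bases before to 50 bases after a RefSeq transcription start in build GRCm38.p6, and is written 5′ to 3′ on the strand of the gene. Capitals mark matches to an E2F motif, TTTNNCGC on either strand, in the first 4 windows. The first 3 belong to subunits of the replicative helicase and the fourth to the licensing factor that loads it.
Mcm6, chr1:128359656-128359955, minus strand: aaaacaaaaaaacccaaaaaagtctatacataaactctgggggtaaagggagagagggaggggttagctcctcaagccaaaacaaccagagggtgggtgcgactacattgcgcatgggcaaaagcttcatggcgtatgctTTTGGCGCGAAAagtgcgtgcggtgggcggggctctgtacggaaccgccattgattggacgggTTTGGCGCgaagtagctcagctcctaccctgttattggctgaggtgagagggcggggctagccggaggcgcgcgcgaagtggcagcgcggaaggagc
Mcm3, chr1:20820263-20820562, minus strand: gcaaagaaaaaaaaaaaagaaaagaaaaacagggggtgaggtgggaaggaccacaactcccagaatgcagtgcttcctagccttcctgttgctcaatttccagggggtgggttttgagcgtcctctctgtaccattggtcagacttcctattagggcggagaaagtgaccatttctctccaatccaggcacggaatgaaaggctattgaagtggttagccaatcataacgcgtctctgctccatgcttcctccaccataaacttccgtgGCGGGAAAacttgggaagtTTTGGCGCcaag
Mcm5, chr8:75109259-75109558, plus strand: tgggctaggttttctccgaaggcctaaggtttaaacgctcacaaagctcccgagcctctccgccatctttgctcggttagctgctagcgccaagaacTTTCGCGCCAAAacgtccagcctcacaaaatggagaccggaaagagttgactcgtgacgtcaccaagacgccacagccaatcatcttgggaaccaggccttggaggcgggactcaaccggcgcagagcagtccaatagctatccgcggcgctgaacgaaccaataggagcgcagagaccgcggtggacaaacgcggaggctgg
Cdt1, chr8:122567765-122568064, plus strand: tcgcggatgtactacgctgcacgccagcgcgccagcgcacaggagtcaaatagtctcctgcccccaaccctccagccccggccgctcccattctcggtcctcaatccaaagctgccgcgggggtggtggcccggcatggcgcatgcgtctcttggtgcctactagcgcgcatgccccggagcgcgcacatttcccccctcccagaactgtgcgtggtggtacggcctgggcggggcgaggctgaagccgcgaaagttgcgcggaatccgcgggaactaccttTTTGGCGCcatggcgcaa
In the windows of Mcm6 and Mcm5 a match on each strand overlaps the other, which gives one longer run of capitals. In the next pair of windows capitals mark an NF-kB motif, GGG and TTCC with any 3 bases between them, on either strand. They belong to the chemokine gene Ccl20 and to Tnfaip3, whose product A20 shuts NF-kB signalling off.
Ccl20, chr1:83116516-83116815, plus strand: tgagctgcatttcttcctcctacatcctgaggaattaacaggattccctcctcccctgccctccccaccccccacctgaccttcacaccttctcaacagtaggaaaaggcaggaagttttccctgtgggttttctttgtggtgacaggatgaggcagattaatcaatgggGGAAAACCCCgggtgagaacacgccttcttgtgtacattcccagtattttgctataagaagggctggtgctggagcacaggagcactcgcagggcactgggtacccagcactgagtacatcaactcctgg
Tnfaip3, chr10:19015361-19015660, minus strand: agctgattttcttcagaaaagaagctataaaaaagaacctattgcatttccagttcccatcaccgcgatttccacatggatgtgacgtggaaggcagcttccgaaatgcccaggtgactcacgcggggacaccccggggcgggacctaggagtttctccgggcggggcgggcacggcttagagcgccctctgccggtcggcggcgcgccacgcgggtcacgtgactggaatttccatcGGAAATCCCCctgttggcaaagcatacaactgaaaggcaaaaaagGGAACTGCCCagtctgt
A window was found for 27 of the 33 tested replication genes, and 13 of these (48.1%) held the E2F motif, against 8.51% of the 13207 tested genes with a window. Among the replication genes that passed the test the share was 46.7%, or 7 of 15. The NF-kB motif was in 9 of 19 NF-kB targets with a window (47.4%), in 2 of the 6 that passed (33.3%), and in 6.9% of all genes with a window. A gene counted when any of its windows held the motif, and a match describes letters, not a bound site.

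Values are log2 ratios of the oesophageal RNA (Cy5) to a common reference RNA (Cy3) pooled from 11 mouse cell lines, and a difference between groups is mixed minus duodenal on that scale. Standard errors from the limma fit follow the ± sign, p-values are adjusted by the Benjamini-Hochberg method over all 20554 genes tested, and a gene passed at an adjusted p under 0.05. All 6 arrays were scanned on the same day. The duodenal arrays and mixed replicate 1 shared a slide, and mixed replicates 2 and 3 were on another. Between 63.5% and 74.1% of probes were well above background on these arrays, and the number of arrays limits the precision. Nfe2l2, the gene of Nrf2, lay between 1.81 and 2.18 on all 6 arrays (difference -0.16 ± 0.24). Keratin and squamous markers other than Ivl were high in both groups. Krt5 lay between 3.89 and 4.17, Krt13 between 5.73 and 6.34 and Lor between 6.97 and 7.39. Ivl was 1.46, 1.28 and 1.40 with duodenal and 2.89, 2.80 and 2.39 with mixed reflux, and did not pass (difference 1.32, adjusted p = 0.299). Markers of neighbouring organs were mixed. The stomach gene Gkn1, the liver gene Ttr and the ciliated cell gene Foxj1 were not well above background on any of the 6 arrays. The stomach genes Atp4a, Tff1 and Muc5ac were measured on all of them, at -0.21 to 1.81, and so were the airway gene Scgb1a1, at 3.16 to 3.70, and the liver gene Alb, at 4.08 to 4.33 with duodenal and 1.22 to 3.60 with mixed reflux.

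The arrays differed in how close they lay to each other. Pairs of duodenal arrays correlated at 0.986 to 0.991 and pairs of mixed arrays at 0.916 to 0.973. Relative to the variance between repeat spots of a probe, the variance between 2 arrays was 5.85 to 13.7 times as large for duodenal and 24.6 to 285 times as large for mixed reflux. Mixed replicate 2 stood apart with fat and muscle genes. The complement factor D gene Cfd, made by fat cells, was 7.04 there and between -0.28 and -0.02 on the other 5 arrays. The mean of 30 skeletal muscle genes was 3.63 on it, 1.63 and 1.35 on mixed replicates 1 and 3, and 2.41 to 2.42 on the duodenal arrays. In bulk tissue, fewer cells of a type and less RNA per cell cannot be told apart.

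Mixed and duodenal reflux differed in 558 of 20554 genes (2.71%), of which 195 (0.949%) were higher and 363 (1.77%) lower with mixed reflux. These shares are the background for the list counts below. Without mixed replicate 2 the count was 769. It was 148 and 195 without mixed replicates 3 and 1, and 180 to 247 without one of the duodenal arrays. With the 3 close duodenal arrays counted as 1 sample only 3 genes passed: Cd163 (3.26 ± 0.47, adjusted p = 0.0337), Edn2 (-2.00 ± 0.21, 0.00286) and Idi2 (-2.93 ± 0.39, 0.0188). With arrays centred on their median in place of loess the count was 159, with 84 higher and 75 lower. The labels call the arrays biological replicates without saying which animals they came from. The p-values rest on a spread between arrays that was pooled over all groups of the series, not on that of the arrays compared alone. A fit of only the 6 arrays of both groups gave 1476 genes.

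**Figure D1:**
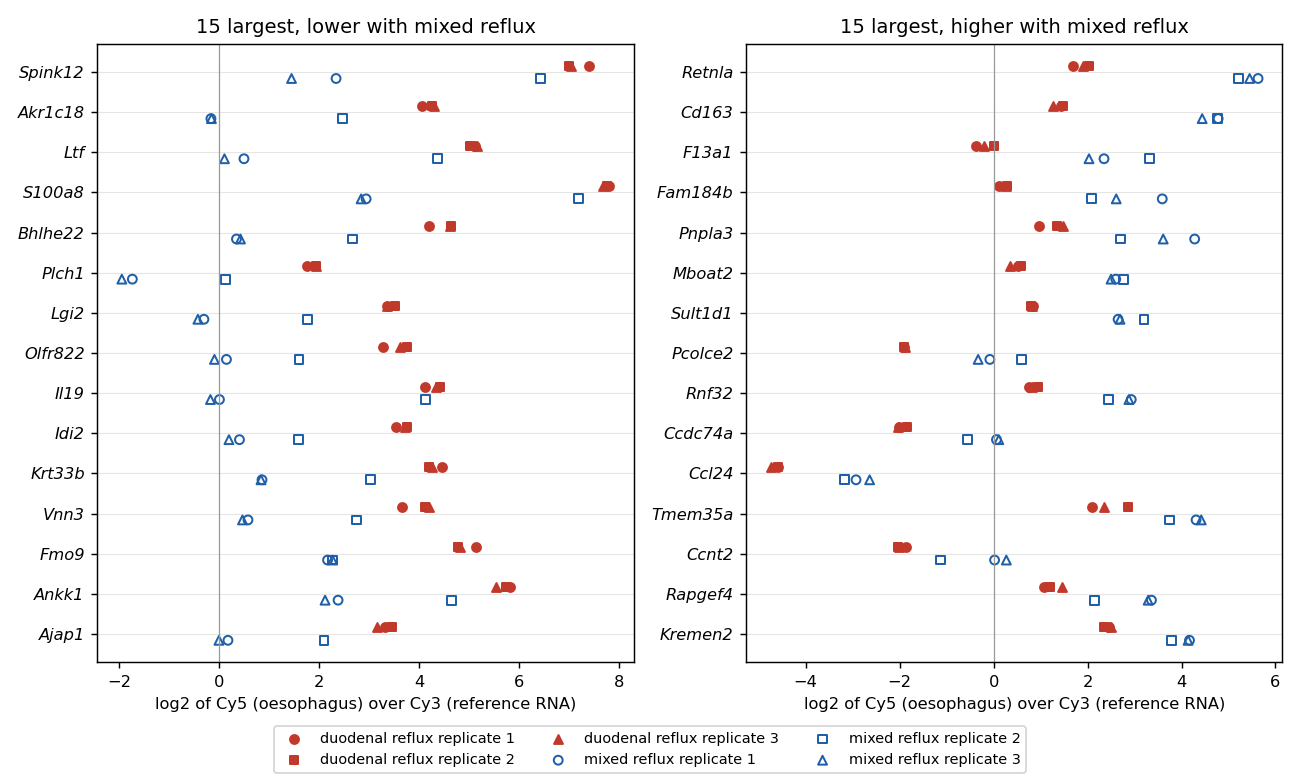
Log2 ratio of Cy5 to Cy3 on each of the 6 arrays for the 15 genes with the largest falls (left) and the 15 with the largest rises (right) among those that passed; filled red symbols are duodenal and open blue symbols mixed reflux arrays, and a symbol's shape marks the replicate. In the left panel mixed replicate 2 (open squares) lies nearest to the duodenal arrays in every gene but Fmo9, and Spink12 is 6.42 there against 2.34 and 1.45 on the other mixed arrays.

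The largest rises were in Retnla, Cd163 and F13a1. Retnla, a secreted protein of macrophages under type 2 cytokines, was 1.68, 2.02 and 1.90 on the duodenal arrays and 5.63, 5.22 and 5.45 on the mixed arrays. The groups were far apart, and it rose by 3.56 ± 0.45 (adjusted p = 0.000858). Cd163, the scavenger receptor for haemoglobin, was 1.44, 1.48 and 1.27 with duodenal and 4.78, 4.76 and 4.44 with mixed reflux. In both genes the mixed arrays were alike, and mixed replicate 2 was not the highest. The rise of Cd163 was 3.26 ± 0.31 (adjusted p = 5.58e-05).

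F13a1, the coagulation factor XIII subunit that resident macrophages carry, was -0.38, 0.01 and -0.20 with duodenal and 2.35, 3.31 and 2.03 with mixed reflux. It rose by 2.76 ± 0.48 (adjusted p = 0.0052), and mixed replicate 2 was the highest. The eosinophil chemokine gene Ccl24 was -4.60, -4.59 and -4.75 with duodenal and -2.93, -3.17 and -2.64 with mixed reflux, a rise of 1.73 ± 0.33 (adjusted p = 0.00785). The macrophage and monocyte list as a whole did not move with them: 2 of 23 tested genes were higher, Cd163 and Gpnmb, 0 were lower, and the median difference was -0.07 against -0.01 over all genes. Its mean was 0.46 to 0.48 on the duodenal arrays and 0.36, 1.24 and 0.31 on the mixed arrays. In the list 11 differences were positive and 12 negative. Folr2 (2.27 ± 0.72, adjusted p = 0.114) and Mrc1 (1.42 ± 0.74, 0.418), markers of resident macrophages, were above the duodenal arrays on all 3 mixed arrays without passing. So were 15.3% of all genes, passing or not. The macrophage markers Cd68 (-0.07), Adgre1 (-0.19) and Csf1r (0.01) differed little. The complement gene C1qa, another macrophage marker, differed by -1.13 ± 0.71 (0.535).

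In the type 2 and eosinophil list, 2 of 21 genes were higher, Retnla and Ccl24, and 1 was lower. The lower gene was Il4ra, the receptor chain for interleukins 4 and 13, at 0.96, 0.73 and 0.84 with duodenal and -0.56, 0.10 and -0.60 with mixed reflux.

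Mboat2, Sult1d1 and Pnpla3, which act on lipids and small molecules, were also among the 15 largest rises. Mboat2, an acyltransferase of membrane phospholipids, was 0.52, 0.59 and 0.34 with duodenal and 2.60, 2.77 and 2.50 with mixed reflux, and rose 4.40-fold (adjusted p = 0.00373). Sult1d1, a sulfotransferase, was 0.84, 0.79 and 0.82 against 2.65, 3.20 and 2.69 (4.08-fold, adjusted p = 0.00233). Neither gene overlapped between the groups. The lipid-droplet protein gene Pnpla3 rose 4.84-fold, with mixed arrays at 4.28, 2.70 and 3.61 and duodenal arrays at 0.97 to 1.47.

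Kremen2, a co-receptor that dampens Wnt signalling, rose 3.04-fold, from 2.34 to 2.49 on the duodenal arrays to 3.78 to 4.17 on the mixed arrays. Among Wnt genes, 1 of 25 was higher and 1 lower. The ligand gene Wnt6 rose 2.35-fold (adjusted p = 0.00216) and the non-canonical ligand gene Wnt5a fell 1.87-fold (adjusted p = 0.0251). Fam184b, Pcolce2, Rnf32, Ccdc74a, Tmem35a, Ccnt2 and Rapgef4 complete the 15 largest rises, at 3.21 to 5.83-fold. A second measured probe of Ccnt2 differed in the opposite direction, and so did one of Pdia6 among the falls.

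The largest falls were in Spink12, Akr1c18, Ltf and S100a8, all far above the reference RNA on the duodenal arrays. Spink12, a Kazal-type protease inhibitor, was 7.39, 6.99 and 7.04 with duodenal and 2.34, 6.42 and 1.45 with mixed reflux. Akr1c18, a steroid-inactivating aldo-keto reductase, was 4.06, 4.26 and 4.30 against -0.16, 2.47 and -0.15. On mixed replicate 2 both genes were closer to the duodenal level than on the other mixed arrays. Spink12 fell by 3.74 ± 0.91 (adjusted p = 0.0345) and Akr1c18 by 3.48 ± 0.46 (adjusted p = 0.000858).

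Idi2, an isopentenyl diphosphate isomerase, was 3.53, 3.76 and 3.71 with duodenal and 0.41, 1.59 and 0.20 with mixed reflux. It fell by 2.93 ± 0.26 (adjusted p = 2.46e-05), the smallest adjusted p among the 30 genes with the largest differences. Fmo9, a flavin monooxygenase gene, was 5.13, 4.77 and 4.82 with duodenal and 2.17, 2.27 and 2.27 with mixed reflux, so here the 3 mixed arrays were alike. Bhlhe22, Plch1, Lgi2, Olfr822, Krt33b, Vnn3, Ankk1 and Ajap1 fell 5.87 to 10.1-fold. In each of these 8 genes mixed replicate 2 lay between the other mixed arrays and the duodenal arrays.

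The smallest adjusted p in the whole comparison was that of Edn2, the gene of the vasoconstrictor endothelin 2, named here after its values were seen. It was 3.05, 3.03 and 3.21 with duodenal and 1.19, 1.12 and 0.98 with mixed reflux, a fall of 2.00 ± 0.14 (adjusted p = 2.03e-06). Its probe lies on chromosome 4 at 119839682 to 119839741 (mm9). The groups were tight and far apart, and mixed replicate 2 did not stand out. Arg2 (-2.55 ± 0.35), the mitochondrial arginase gene, and Gabrp (-2.50 ± 0.40), a subunit of the GABA-A receptor, were seen in the same way. Efemp1, a fibulin of the extracellular matrix, rose by 1.56 ± 0.23, with duodenal arrays between -3.31 and -3.18 and mixed arrays between -1.71 and -1.64.

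DNA replication genes formed the most populated block of falls among the 60 gene lists examined. Of 33 tested members 18 were lower and 0 higher, and the median difference was -0.91 against -0.01 over all genes. At an unadjusted p under 0.05, 29 were lower and 0 higher, against 7.72% and 6.57% of all genes. On 31 of the 33, all mixed arrays lay below all duodenal arrays, against 17.3% of all genes. The mean of the list was -1.40, -1.34 and -1.38 on the duodenal arrays and -2.23, -2.09 and -2.30 on the mixed arrays, so mixed replicate 2 moved with its group.

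Mcm10 and genes of the helicase subunits carried the largest differences. Mcm3 was -1.18, -1.20 and -1.17 with duodenal and -2.85, -2.31 and -2.71 with mixed reflux, and fell by 1.44 ± 0.20 (adjusted p = 0.00117). Mcm6 was -1.86, -1.71 and -1.87 against -3.04, -2.97 and -3.01, and fell by 1.19 ± 0.15 (adjusted p = 0.000815). In both genes every mixed array lay more than 1 log2 unit below every duodenal array. Mcm10, which helps to start the helicase, fell by 1.46 ± 0.20, Mcm4 by 1.39 ± 0.22 and Mcm2 by 1.30 ± 0.19. Mcm5 fell less, by 0.91 ± 0.13, and the sixth helicase subunit gene, Mcm7, differed by -0.67 ± 0.20 without passing (adjusted p = 0.0906).

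The helicase activator Cdc45 fell by 1.18 ± 0.14 (adjusted p = 0.000427), the smallest adjusted p of the list. The loader Cdt1, whose promoter is printed above with its E2F match, fell by 1.08 ± 0.15, and Gins1 of the same helicase complex by 1.03 ± 0.19. Genes that synthesise DNA and its precursors were lower as well. Fen1, the flap endonuclease, fell 2.30-fold, Rrm2, a subunit of ribonucleotide reductase, 2.41-fold, the ligase Lig1 by 1.06 ± 0.16 and the polymerase Pole by 1.00 ± 0.16. Pcna, the sliding clamp, differed by -0.94 ± 0.32 (adjusted p = 0.159), and the transcription factor gene E2f1 by -0.34 ± 0.25 (0.632). Exo1, Fignl1 and Hells, replication and repair genes outside the list that were noticed in the values, fell by 1.43 ± 0.18, 1.69 ± 0.19 and 1.24 ± 0.18.

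The number of replication genes that passed was 18 without mixed replicate 2, 14 and 15 without mixed replicates 3 and 1, and 15 or 16 without one of the duodenal arrays. It was 10 with slide as a block, 7 within the shared slide, 4 after median centring and 0 with the duodenal arrays counted as 1 sample.

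Fewer genes of mitosis, the later step of the cycle, passed the test. Only Cdk1, the kinase that starts mitosis, passed among 31 tested members, with duodenal arrays between -1.66 and -1.64 and mixed arrays at -2.18, -2.00 and -2.24 (-0.49 ± 0.12, adjusted p = 0.0289). The median difference of the list was -0.31, with 27 members negative and 4 positive. At an unadjusted p under 0.05, 12 members were lower and 0 higher, against 7.72% and 6.57% of all genes. On 19 members all mixed arrays lay below all duodenal arrays and on 2 above, against 17.3% and 15.3% of all genes. Mki67 differed by -0.10 ± 0.31 and Ccnb2 by 0.15 ± 0.14. The difference between the lists was not tested.

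**Figure D2:**
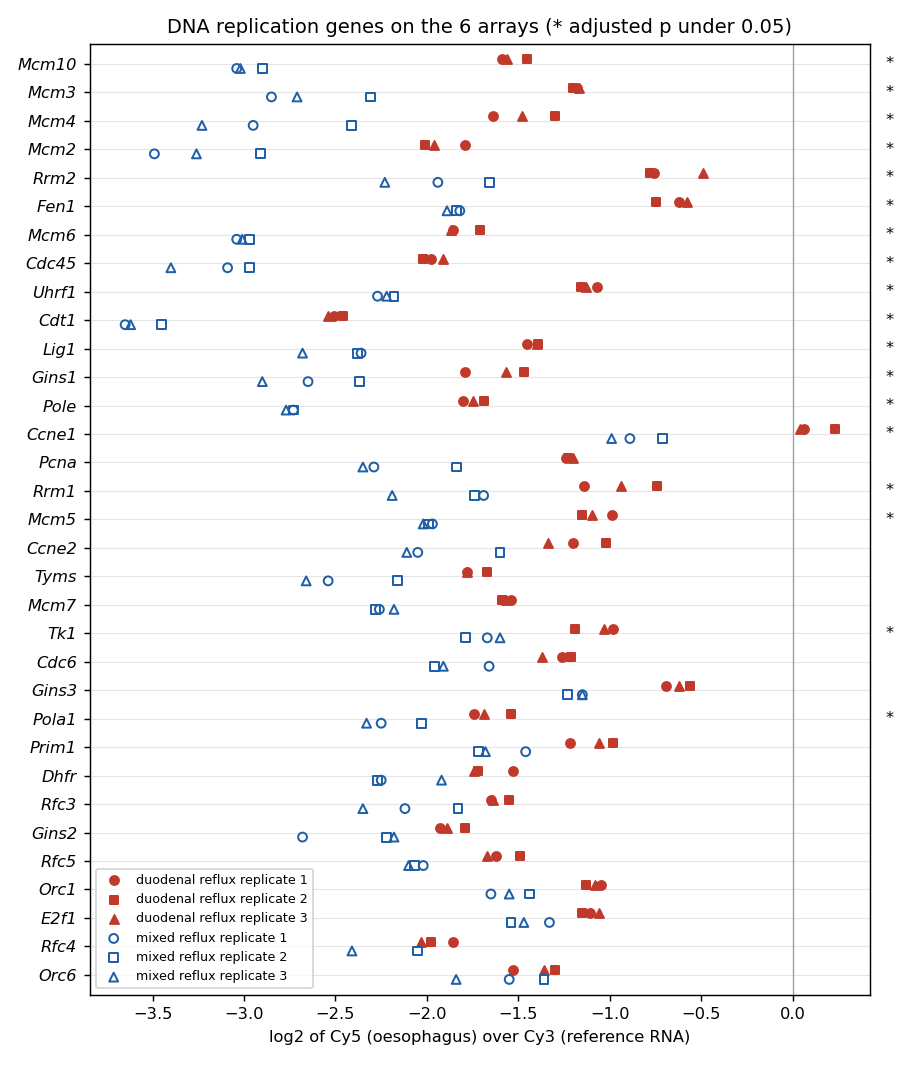
Log2 ratio of Cy5 to Cy3 for the 33 tested DNA replication genes on the 6 arrays, ordered by the difference; red filled symbols are duodenal arrays, blue open symbols mixed arrays, and a star marks an adjusted p under 0.05. Of the genes with a larger difference than Ccne2, Pcna alone has no star, and on 31 genes every mixed array lies to the left of every duodenal array.

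Of 27 tested NF-kB targets 7 were lower and 0 higher, against 1.77% and 0.949% of all genes, with a median difference of -0.60. Csf3, the growth factor of neutrophils, was 3.17, 3.22 and 3.29 with duodenal and 0.12, 2.21 and 0.35 with mixed reflux. It fell by 2.33 ± 0.39 (adjusted p = 0.00374). Ccl20, a chemokine for lymphocytes and dendritic cells whose promoter is shown above, was 1.67, 1.90 and 1.88 against 0.19, 0.72 and 0.08, and fell by 1.48 ± 0.22 (adjusted p = 0.00189). In both genes mixed replicate 2 was the highest mixed array and still below the duodenal arrays.

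Sele, the endothelial selectin that captures leukocytes, fell 4.75-fold, and Lcn2, the iron-binding neutrophil lipocalin, fell 3.56-fold. The feedback inhibitor gene Tnfaip3 (2.12-fold, adjusted p = 0.0297) fell too, and so did Birc3 (1.87-fold, 0.0179). The mean of the list was -0.22 to -0.14 on the duodenal arrays and -1.21, -0.27 and -1.24 on the mixed arrays, so mixed replicate 2 lay close to duodenal reflux. Without it 10 members were lower, and without any one of the other 5 arrays 2 or 3 were. With the duodenal arrays as 1 sample none passed.

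Cytokines of the interleukin 17 and interleukin 20 families, which act on epithelium, included 4 falls and 0 rises among 19 tested genes. Over all genes 1.77% fell and 0.949% rose. Il19 was 4.11, 4.42 and 4.34 with duodenal and 0.01, 4.13 and -0.17 with mixed reflux. Its fall of 2.97 ± 0.76 (adjusted p = 0.0438) thus rested on mixed replicates 1 and 3. The receptor gene Il20ra was between 2.99 and 3.24 on the duodenal arrays against 1.29, 1.11 and 0.67 on all mixed arrays alike, and fell 4.25-fold (adjusted p = 0.00294). Il24, another ligand of that receptor family, fell 1.74-fold. Il23a, a subunit of interleukin 23 that maintains type 17 cells, was not well above background on any mixed array and was at least 1.78-fold lower. In this list 2 or 3 genes passed without any one array other than mixed replicate 2, and 0 with slide as a block or within the shared slide.

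Of 27 antimicrobial and alarmin genes 4 were lower and 2 higher, against 1.77% and 0.949% of all genes. Without mixed replicate 2 these counts were the same, but without any one of the other 5 arrays 0 were lower and 0 to 2 higher, and 0 were lower in the fits of the 6 arrays alone or of the same day. S100a8, a calprotectin subunit of neutrophils and stressed keratinocytes, was 7.80, 7.76 and 7.67 with duodenal and 2.94, 7.18 and 2.84 with mixed reflux. Lactoferrin, Ltf, was 5.12, 5.02 and 5.15 against 0.50, 4.36 and 0.11. On mixed replicate 2 both stayed near the duodenal level. They fell by 3.42 ± 0.79 (adjusted p = 0.0268) and 3.44 ± 0.73 (0.0157), and Pglyrp1, which binds bacterial cell walls, fell 4.15-fold.

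These genes are shared with neutrophils, whose list had 2 of 16 genes lower (S100a8 and Ltf) and a mean of 1.59 to 1.61 on the duodenal arrays against 0.72, 1.82 and 0.70 on the mixed arrays. The part of neutrophils in the falls was not tested. Reg3b, an antibacterial lectin, rose instead. It was not well above background on any duodenal array (0.28, 0.23 and 0.24) and reached 1.40, 3.00 and 0.99 with mixed reflux, at least 2.51-fold higher. S100a10, the annexin A2 partner, rose 1.91-fold (adjusted p = 0.00807).

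Growth factor and wound genes of the epithelium were lower where they passed. The EGF receptor ligands Areg and Epgn were the 2 members of 17 in the EGF family list that fell, with 0 that rose. Areg was 2.68, 2.31 and 2.40 with duodenal and -0.24, 1.89 and 0.47 with mixed reflux (3.37-fold, adjusted p = 0.019). Epgn was 4.60, 4.69 and 4.56 against 1.37, 4.32 and 1.09 (5.12-fold, adjusted p = 0.0248). Mixed replicate 2 was again closest to the duodenal arrays. In the wounded epithelium list 3 of 25 genes were lower, these ligands and Il24, with a median difference of -0.38. The count was 6 without mixed replicate 2 (median -0.67), 1 without duodenal replicate 1 and 0 without any one of the other 4 arrays. The stress keratin Krt16 (6.46, 6.46 and 6.58 against 4.59, 6.02 and 4.47) and the stromelysin Mmp3 (5.08-fold, adjusted p = 0.118) did not pass.

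The endoplasmic reticulum folding genes Sdf2l1, Pdia4 and Pdia6 were lower. They were 3 of 22 in the unfolded protein response list, against 1.77% of all genes, with 0 higher and a median of -0.46. Sdf2l1, a component of a chaperone complex, was -0.01, -0.35 and 0.03 with duodenal and -1.17, -0.72 and -1.15 with mixed reflux (1.87-fold, adjusted p = 0.028). Without any one array other than mixed replicate 2 the count was 0, as it was with slide as a block, with the arrays of the same day and after median centring. The p53 list had 2 genes on each side of 24, against 0.949% of all genes higher and 1.77% lower. Cdkn1a, the inhibitor of cyclin-dependent kinases, rose 1.66-fold (0.70, 0.62 and 0.64 against 1.33, 1.21 and 1.62) and Gadd45b 2.01-fold. The pro-apoptotic genes Pmaip1 and Tnfrsf10b fell 3.72 and 1.82-fold.

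Nrf2 targets that passed were all higher, 4 of 40 against 0.949% of all genes, and the median difference of the list was 0.16. Gstm2, a glutathione transferase, was 1.39, 1.43 and 1.49 with duodenal and 2.93, 2.48 and 2.84 with mixed reflux, and rose 2.48-fold (adjusted p = 0.00256). Its relatives Gstm1 (2.08 to 2.15 against 2.75 to 3.02, 1.74-fold) and Gstm3 (1.85-fold) rose as well. These near-identical paralogs may share hybridising RNA, so their rises are not independent. Catalase, Cat, which removes hydrogen peroxide, was 0.33, 0.61 and 0.65 against 1.99, 1.49 and 1.43. The quinone reductase Nqo1, a classical Nrf2 target, differed by 0.52 ± 0.21 (adjusted p = 0.254). The number of Nrf2 targets that passed was 2 without any one array other than mixed replicate 2, and 0 with the duodenal arrays as 1 sample. The antioxidant response motif TGACNNNGC, on either strand, was in the promoter windows of 11 of 34 listed targets (32.4%) and of 16% of all genes with a window, and in 0 of the 4 genes that passed.

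Aldh1a1, which makes retinoic acid, rose alone among 19 retinoid genes. It was 0.39, 0.50 and 0.41 with duodenal and 2.02, 1.97 and 1.67 with mixed reflux, a rise of 1.45 ± 0.19 (adjusted p = 0.0011). In the fatty acid oxidation list, 1 of 28 genes was higher, the thiolase Acaa2 (1.71-fold, adjusted p = 0.00553), and the median difference was 0.41. All mixed arrays lay above all duodenal arrays for 16 of the 28, against 15.3% of all genes. The list mean was 0.73 to 0.77 on the duodenal arrays and 0.91, 1.54 and 0.89 on the mixed arrays, highest on the replicate rich in fat and muscle genes, and within the shared slide the median difference was 0.25. Acsl1, which activates fatty acids, rose 1.76-fold, whereas Dgat1, which forms triglycerides, fell 1.52-fold.

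Of 14 smooth muscle genes 2 were higher and 0 lower, with a median of 0.82. Cnn1, calponin, was 3.80, 3.68 and 3.64 with duodenal and 4.85, 5.21 and 5.36 with mixed reflux, and rose 2.71-fold (adjusted p = 0.0121). Tagln, transgelin, was 0.17, 0.19 and 0.10 against 1.39, 1.84 and 1.36 (2.60-fold, adjusted p = 0.0241). The mean of the list was 1.44 to 1.57 on the duodenal arrays and 1.84, 2.87 and 1.95 on the mixed arrays. The fibroblast list had 0 of 29 genes past the test, with means of -0.58 to -0.50 against -0.73, 0.63 and -0.67. Myh11 (0.03), Actg2 (0.13) and Des (0.68), further smooth muscle markers, did not pass. Without mixed replicate 2, 1 smooth muscle gene passed and the median was 0.46. None passed without mixed replicate 3 or duodenal replicate 2 or 3, with slide as a block, with the arrays of the same day or within the shared slide, where the median was 0.33.

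Genes of the bile acid and columnar epithelium lists that passed were lower. Cyp7b1, an oxysterol hydroxylase of the alternative bile acid pathway, fell 3.06-fold (6.27, 6.06 and 6.16 against 4.10, 5.51 and 4.04). Slco2a1, a prostaglandin transporter gene kept in the same list, fell 2.15-fold, which made 2 of 21 genes in the list of bile acid sensing and transport. The secretory lineage factor Spdef fell 3.48-fold and the adhesion molecule Ceacam1 5.32-fold, 2 of 26 columnar genes. Guca2b, the gut peptide uroguanylin, rose 2.07-fold, the only one of 19 small intestine genes. Car2, a carbonic anhydrase that makes bicarbonate, fell 5.32-fold.

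Liver-type transcripts had the second lowest median of the 60 lists, -0.85, although only the major urinary protein gene Mup3 of 24 passed. Mup3 was 4.21, 4.07 and 4.23 with duodenal and 1.58, 2.98 and 1.43 with mixed reflux, and Alb differed by -2.17 ± 0.71 (adjusted p = 0.13). The mean of the list was 2.33 to 2.42 on the duodenal arrays and 1.01, 2.07 and 0.92 on the mixed arrays. Mup3 did not pass when any one array other than mixed replicate 2 was left out. Whether liver tissue was carried along with the oesophagus was not tested.

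Few genes of the lymphoid lists passed the test. Zap70, the kinase of the T cell receptor, fell 1.77-fold (adjusted p = 0.0335), 1 of 19 T and NK cell genes, with a median of -0.61. Among these genes 17 differences were negative and 2 positive. Unadjusted p was under 0.05 for 6 lower and 1 higher, against 7.72% and 6.57% of all genes. On 10 all mixed arrays lay below all duodenal arrays and on 1 above. H2-Oa, which modulates peptide loading, fell 1.98-fold, 1 of 10 MHC class II genes, with a median of -0.64. All 10 were negative, and on 5 all mixed arrays lay below all duodenal arrays. None of 32 interferon-stimulated genes passed in limma's test and 1 was lower at an unadjusted p under 0.05. Their median difference was -0.40, with 26 negative and 6 positive. On 18 all mixed arrays lay below all duodenal arrays and on 3 above, against 17.3% and 15.3% of all genes. Cxcl10 was -0.68, -0.67 and -0.49 against -3.33, -3.01 and -3.09. Its standard error was pooled over all groups (-2.53 ± 1.11, adjusted p = 0.298).

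Squamous structure showed no passing change. In limma's test 0 of 31 cornified envelope genes and 0 of 17 squamous keratins passed, with medians of 0.01 and -0.11. At an unadjusted p under 0.05, 2 envelope genes were higher and 3 lower, and 1 keratin was higher and 5 were lower. Over all genes 6.57% were higher and 7.72% lower. All mixed arrays lay below all duodenal arrays on 5 keratins and 4 envelope genes, against 17.3% of all genes. They lay above on 1 keratin and 3 envelope genes, against 15.3%. The envelope gene Sprr2h was 5.68, 5.37 and 5.52 with duodenal and 3.57, 5.05 and 3.40 with mixed reflux (adjusted p = 0.129). The keratin Krt76 was 2.16, 2.52 and 2.51 against 4.39, 3.80 and 3.59 (2.89-fold higher, adjusted p = 0.0754). Tight junction (18 genes), desmosome (20), oxidative phosphorylation (48), stomach (14) and pancreas (20) lists also had 0 genes past the test, and 0 at an unadjusted p under 0.05.

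**Figure D3:**
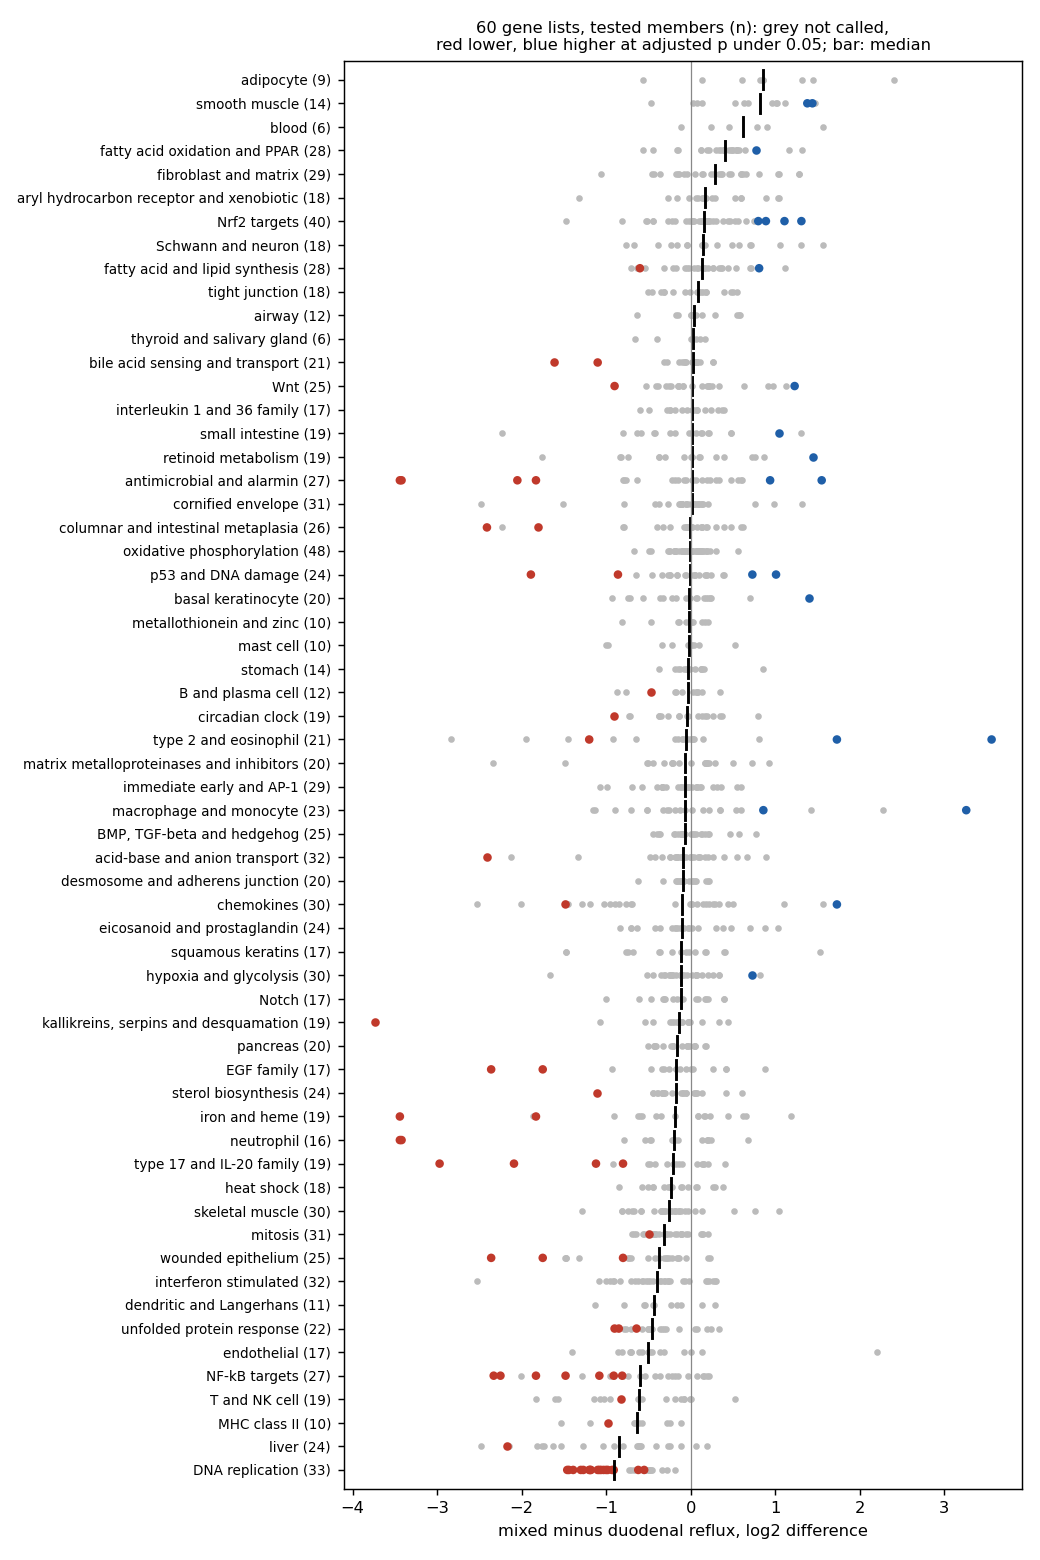
Log2 difference (mixed minus duodenal reflux) of every tested member of the 60 gene lists, ordered by the list median (black bar), with the number of tested members in brackets; red points were lower and blue points higher at an adjusted p under 0.05, and grey points did not pass. DNA replication lies at the bottom with a median of -0.91 and 18 red points, and smooth muscle near the top with a median of 0.82.

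Levels in the other groups place these differences. Cd163 lay between 4.28 and 4.56 on the arrays without reflux and with gastric reflux, so the mixed arrays were near that range and the duodenal arrays about 3 log2 units below it. Retnla was 5.53 and 4.46 on the 2 arrays without reflux that measured it, and 4.81 to 4.88 with gastric reflux. Csf3 and Ccl20 lay between -0.27 and 0.35 on the arrays without reflux and with gastric reflux, where mixed replicates 1 and 3 also lay. Idi2 was between -0.17 and 0.36 on those arrays. The replication list averaged -2.28 to -2.15 without reflux and -2.56 to -2.32 with gastric reflux, near the mixed values. Those groups were scanned on other days and slides.

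Whether gastric content had another effect on top of duodenal reflux than on its own was tested as mixed minus duodenal less gastric minus none. Of 20551 genes 633 passed (3.08%), 253 (1.23%) with a positive and 380 (1.85%) with a negative value. On replicates 1 and 2 without reflux 13% and 11.8% of spots were outliers and left out, against at most 0.659% on the other arrays. Some genes, such as Cnn1 and Gstm2, were thus measured on only 1 array without reflux. The term shares the mixed and duodenal arrays with the comparison above. For Cd163 gastric minus none was 0.14, and the value of the term was 3.13 ± 0.44 (adjusted p = 0.00222). Idi2 gave -3.24 ± 0.36 (adjusted p = 0.000527), Mcm3 -1.53 ± 0.28 (0.0105), Csf3 -2.46 ± 0.56 (0.0243) and Edn2 -1.18 ± 0.20 (0.00847). F13a1, which was 1.38 higher with gastric reflux than without reflux, did not pass (1.38 ± 0.72, 0.298).

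Of the replication genes 10 of 33 passed in that test. In the liver list 12 of 24 did, where gastric minus none had a median of 2.17 and mixed minus duodenal one of -0.85. The count over all genes was 68 with scan day as a block, 2192 without gastric replicate 1, 1626 without mixed replicate 2 and 10 with the duodenal arrays as 1 sample.

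In Nrf2-null mice the same pair of conditions was measured. The difference of mixed minus duodenal reflux between genotypes passed for 353 genes (1.72%), 123 (0.598%) with a higher and 230 (1.12%) with a lower value of mixed minus duodenal in the wild type. The 3 Nrf2-null mixed arrays were close to repeat measurements (1.63 to 2.61 times the variance between repeat spots) and were counted as 1 sample, and their tissue label differs, so genotype and tissue cannot be told apart here. Cd163 was 4.84, 4.90 and 5.01 in null mice with duodenal reflux and 3.28, 3.19 and 3.15 on the arrays of the null mixed sample. It thus lay lower, not higher, with mixed reflux, and the difference between genotypes was 4.97 ± 0.54 (adjusted p = 0.000362).

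Replication genes also lay on the other side. Their median mixed minus duodenal difference was 0.51 in null and -0.91 in wild-type mice, and 15 of 33 passed the test of that difference. Mcm6 was -2.46, -2.13 and -2.50 in null mice with duodenal and between -1.50 and -1.43 with mixed reflux (difference between genotypes -2.10 ± 0.26, adjusted p = 0.00109). For the calponin gene Cnn1 mixed minus duodenal was -1.88 in null mice and 1.44 in wild-type mice (3.32 ± 0.49, adjusted p = 0.00328). Edn2 was lower with mixed reflux in both genotypes, by 2.00 ± 0.14 in the wild type and at 0.42 to 0.50 against 2.72 to 2.83 in the null, and its difference between genotypes was 0.30 ± 0.25 (adjusted p = 0.573). The count over all genes was 714 without wild-type mixed replicate 2, 155 without mixed replicate 3, 34 within the shared slide and 33 with the wild-type duodenal arrays as 1 sample.

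**Figure D4:**
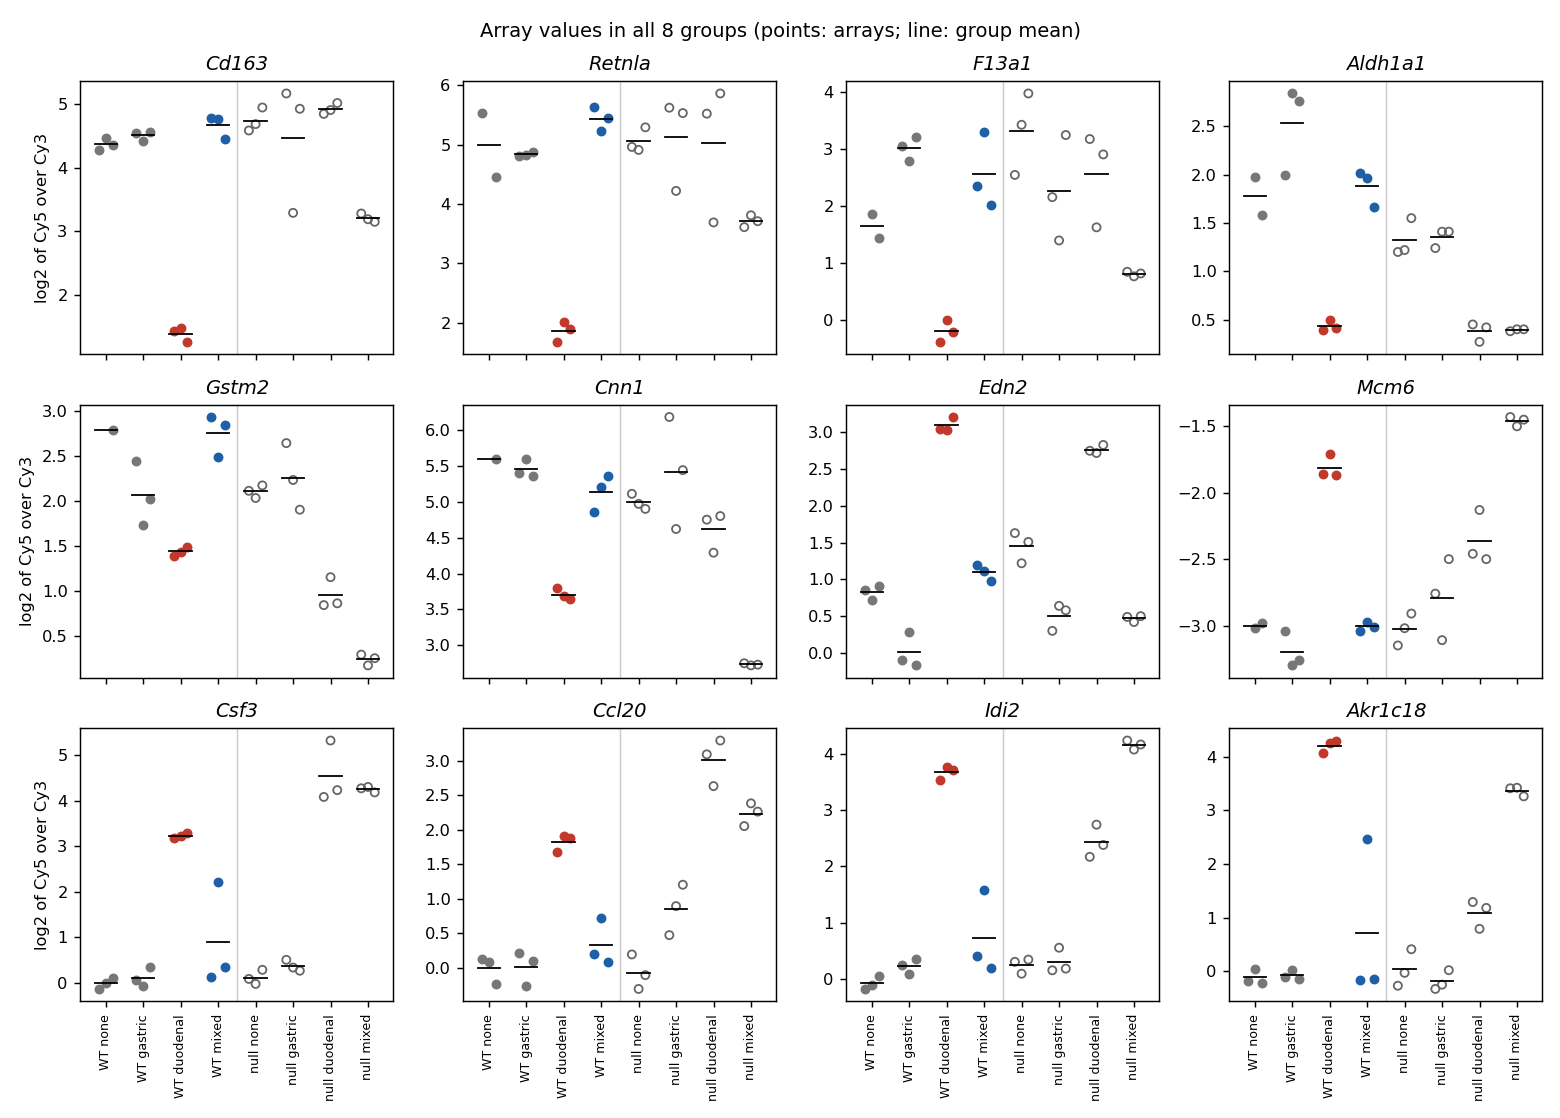
Log2 ratio of Cy5 to Cy3 of 12 genes in all 8 groups (WT wild type, null Nrf2-null; none means no reflux), with one point per array and a line at the group mean; red is wild-type duodenal and blue wild-type mixed reflux. Cd163 and Retnla are lower on the 3 red points than on any other array, and Edn2 is high in duodenal reflux of both genotypes, between 2.72 and 3.21.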

How the data were processed

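The deposited scanner files, written by Agilent Feature Extraction (version 9.1 per the submitters' processing notes, but 10.5.1.1 on 2 arrays without reflux and 10.7.3.1 on the other 22 per the file headers), hold the mean and local background intensity of both dyes for 45018 spots per array, per the file headers, and that software's log10 ratio of the dyes, per the file headers. A deposited table gives log2 ratios of the authors, whose normalisation the sources used here do not give. The log10 and log2 ratios served as alternatives.

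Intensities were corrected with normexp (offset 50) and normalised by loess within each array in limma 3.58.1 (R 4.3.3), with control spots at weight 0, outlier spots left out and flagged local backgrounds set to the array median. A gene was represented by its brightest probe and was tested when well above background (Cy5) throughout at least 1 group. The model had a mean for each group and 22 samples (14 residual and 2.91 prior degrees of freedom), with p-values adjusted by the Benjamini-Hochberg method. The script was tested on simulated data. Of 172 genes that passed and had other probes, 27 (15.7%) had one of the opposite sign. "At least" folds divide the mean Cy5 level of the brighter group by the lowest level well above background, and are open to dye bias because no dye was swapped.

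Named were the 15 largest differences that passed in each direction with a gene symbol, and in each list the members that passed, up to 6, or otherwise the 2 with the smallest p; other genes were named after their values were seen. Promoter windows are those of RefSeq (GRCm38.p6). The groups, gene lists and tests were chosen with earlier results of these data known. Probe coordinates are in mm9, the build in the file headers of the 6 arrays compared; the headers of the 2 older-version arrays name mm7.

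Replicate numbers are shared between the groups, but same-numbered mixed and duodenal arrays deviated together with correlations of -0.35, 0.07 and -0.16, so the numbers were not used as pairs.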

Additional observations from a re-analysis of the deposited data

Results flagged for a closer look

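The test of whether mixed minus duodenal reflux differed between wild-type and Nrf2-null mice passed for 353 genes. Among the 30 genes with the largest wild-type differences 19 passed it, against 1.72% of all genes. Those 30 were picked by the wild-type difference, which is itself part of this test. Their count is raised by that choice and is no separate result. Positive values, meaning a higher mixed minus duodenal difference in the wild type on the log2 scale, were found for Retnla (4.88), Cd163 (4.97), F13a1 (4.52), Mboat2 (3.41), Rnf32 (2.43), Ccdc74a (2.76), Ccl24 (2.89), Ccnt2 (3.34), Rapgef4 (2.56) and Kremen2 (1.87). Negative values were found for Akr1c18 (-5.76), Bhlhe22 (-4.60), Plch1 (-4.13), Lgi2 (-3.33), Olfr822 (-3.97), Idi2 (-4.65), Krt33b (-3.59), Fmo9 (-3.93) and Ajap1 (-3.99). The Nrf2-null mixed reflux arrays were counted as 1 sample, labelled oesophageal epithelium, so what the values owe to genotype and to the tissue taken cannot be told apart.

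The test of whether mixed minus duodenal reflux differed from gastric reflux minus none in the wild type passed for 633 genes (3.08%). It passed for 17 of the same 30, whose choice by the wild-type difference raises this count too. Positive values were found for Retnla (3.72), Cd163 (3.13), Fam184b (3.13), Pnpla3 (3.76), Sult1d1 (2.13), Rnf32 (2.74), Ccdc74a (2.93), Ccl24 (1.74), Rapgef4 (2.76) and Kremen2 (2.00). Negative values were found for Akr1c18 (-3.52), Bhlhe22 (-4.07), Lgi2 (-4.31), Olfr822 (-3.16), Idi2 (-3.24), Fmo9 (-2.88) and Ajap1 (-4.18). In 14 of the 30 genes both tests passed, and both contain the wild-type difference by which the 30 were picked. The arrays without reflux and with gastric reflux were scanned on other days and slides than the mixed and duodenal arrays, so the part of the scan day in these values was not tested gene by gene, and 68 genes passed in place of 633 once scan day was a block.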

How the results depend on the processing

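Each named gene that passed in the wild-type comparison was followed under 28 alternatives: 0 of 2996 values changed sign, 2263 stayed past the threshold and 733 did not. These genes were chosen for passing on the same arrays, so the absence of sign changes is no independent check. The number of genes that passed, 558, was 1476 in a fit of the 6 arrays alone, 231 with the arrays of the same day, 1855 with a scan day block, 183 with a slide block and 90 within the shared slide. It was 159 after median centring (84 rises, 75 falls), 895 with the Nrf2-null mixed arrays as 3 samples and 4521 with array weights. Added after seeing the data were the duodenal arrays as 1 sample (3 genes) and muscle and fibroblast means as covariates (1554). Leaving out one array gave 148 to 769 genes, the highest without mixed replicate 2, when 477 of the 558 genes still passed. The replicate block, although the numbers did not pair the arrays, gave 439 genes. With it 4 of the 7 NF-kB targets passed.

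The difference between genotypes (353 genes) gave 682 in the 4 groups alone, 92 with the same day, 1323 with a scan day block, 85 with a slide block, 34 within the shared slide, 223 with local backgrounds as read, 155 after median centring and 202 with the authors' deposited log2 values. It gave 2766 with the null mixed arrays as 3 samples, 619 with the muscle list as a covariate, 3760 with array weights, 33 with the duodenal arrays as 1 sample and 155 to 714 leaving out one array. No replicate block could be fitted there, because the averaged null sample has no number.

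The test against gastric minus none (633 genes) gave 2161 in the 4 groups alone, 68 with a scan day block, 212 with a slide block, 59 within the shared slide, 1316 with local backgrounds as read and 1035 with the software's log10 ratio. It gave 1281 with the null mixed arrays as 3 samples, 262 with the muscle covariate, 6775 with array weights, 10 with the duodenal arrays as 1 sample and 175 to 2192 leaving out one array. The replicate block gave 571, and a fit of the same day was not run because no day held all 4 groups. Median centring moved the median of all genes to -0.20 in the genotype test and -0.24 here. The cause of these changes was not tested. Precision is limited by 3 arrays per group, and dim genes have only bounds.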
